A study of Homo sapiens with 4 samples.

Results

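Chromosome 17 held 4256 of the 78859 regions of replication initiation listed for HCT116 cells with unaltered RepID (WT), 6160 of the 159667 listed for HCT116 cells in which RepID was knocked out (KO), and 1728 of the 24222 RepID-bound regions listed for U2OS cells. Its members were chosen by position: every region whose deposited chromosome is 17, with the short arm taken as starts below 22 Mb and the long arm as starts at 25 Mb or more on hg19. The chromosome was singled out with its share of origins retained in KO cells already known, so the difference between bound and unbound origins is given here as a description with no test. HCT116 is a colon carcinoma line and U2OS an osteosarcoma line. Nascent DNA strands were isolated from asynchronous HCT116 cultures, the KO line having been made by CRISPR-Cas9 with a guide against the fourth exon of RepID and puromycin selection of stable cells. The study's methods speak of selecting stable clones, with transfected cells seeded in a dilution series, but whether the sequenced line was 1 clone is not given in the sources used here. RepID binding was measured by ChIP-Seq with a FLAG antibody in asynchronous U2OS cells that stably carry RepID with a triple FLAG tag, so that binding was not measured in the cells in which initiation was. With 1 library per condition there is no spread between replicates, and the depth of each library is unknown.

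Replication of human chromosomes starts at many sites, each licensed before S phase and only some of them used in a given cell cycle. Initiation tends to be frequent in gene-rich, early-replicating chromatin and sparse in gene-poor stretches. RepID, also called PHIP or DCAF14, is a bromodomain protein and a substrate receptor of the CUL4-DDB1 ubiquitin ligase that associates with a subset of origins. Chromosome 17 is among the most gene-dense human chromosomes, and its long arm ends in a gene-rich, early-replicating band.

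Along the short arm, WT cells had 1187 initiation regions, or 54.0 per Mb, which covered 25.8% of the arm. KO cells had more regions there, 1439 or 65.4 per Mb, but these covered less of the arm, 21.5%. On the long arm the order of the covered shares was the opposite. WT cells had 3061 regions (54.5 per Mb) that covered 29.6%, and KO cells had 4712 regions (83.9 per Mb) that covered 39.9%. The covered length in KO cells was thus 0.836 times that of WT cells on the short arm and 1.35 times on the long arm. Mean widths were 4779 bp in WT and 3294 bp in KO cells on the short arm, and 5429 bp and 4758 bp on the long arm. Between the arms, the lists held only 8 WT, 9 KO and 1 RepID regions. This stretch is bounded by the arms' last and first members: the last WT region of the short arm ran from 21985601 to 21988600 (score 207) and the next one from 22002601 to 22007800 (score 409), while the first WT region of the long arm ran from 25309201 to 25311200 (score 158). The last KO region before the long arm, chr17:22244001-22263000, had a score of 40494, far above the highest score of either arm in the KO list (2420 and 4083).

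**Figure D1:**
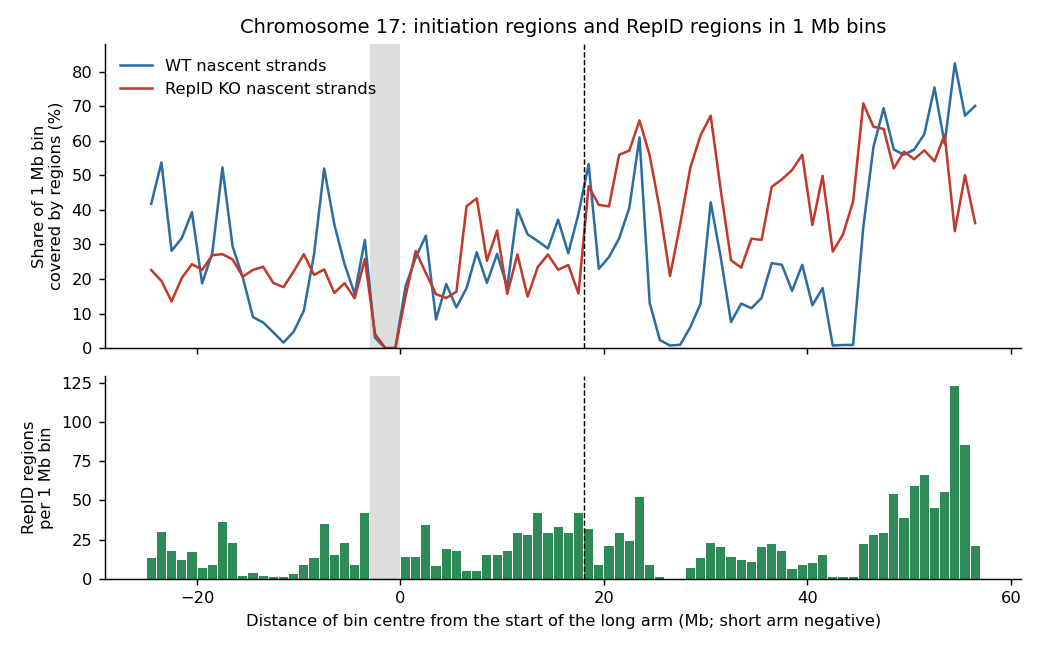
Share of each 1 Mb bin of chromosome 17 covered by WT (blue) and KO (red) initiation regions, in percent, and number of RepID regions per bin (bars), against the distance of the bin from the start of the long arm in Mb, so that the short arm is negative. Grey marks the stretch between the arms, the dashed line the split of the KO list at 43 Mb of the chromosome, which is 18 Mb on this axis, and the last bin is shorter than 1 Mb. On the long arm KO coverage averaged 23.6% before the dashed line and 47.6% after it, with troughs down to 20.9% where WT regions covered under 2%.

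In bins of 1 Mb, KO coverage of the short arm was even, whereas that of WT cells was not. Over the 22 short-arm bins, KO regions covered from 13.5% to 27.2% (median 22.4%) and WT regions from 1.60% to 53.7% (median 27.3%). On the long arm KO coverage ran from 14.5% to 70.8%. Splitting the 56 full bins of the long arm in 2 so that the KO covered shares on each side varied least placed the change at 43 Mb, with a mean of 23.6% before and 47.6% after it. This division took up 47.7% of the variance between bins, and proximal bins reached up to 43.3% while distal bins went down to 20.9%. With bins of 500 kb the split fell at 43.5 Mb, and with bins of 100 kb at 43.4 Mb. The same procedure placed the WT split at 71 Mb and the RepID split at 73 Mb, so the KO change was not at the place where the WT list changed most.

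Close to 43 Mb the contrast between the lists was plain. In the 5 Mb before it, KO regions covered 22.6% and WT regions 32.7%, and in the 5 Mb after it 48.5% and 35.0%. KO coverage changed 2.14-fold over these windows, WT coverage 1.07-fold and RepID coverage 0.675-fold. The median KO score went from 127.5 to 209 and the median KO width from 2800 to 3900 bp, while the WT medians were 195 and 190.5 for the score and 3000 bp on each side for the width. HCT116 cells are known to carry additional material of the long arm of chromosome 17. The WT and KO lists both come from HCT116 cells, and whether copies differed between the WT and KO lines is not known. Copy number was not measured in these lists, so a change in copies and a change in initiation cannot be told apart here. The long arm is therefore described below in 2 parts, proximal (25 to 43 Mb) and distal (from 43 Mb), a division made after the values were seen.

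**Figure D2:**
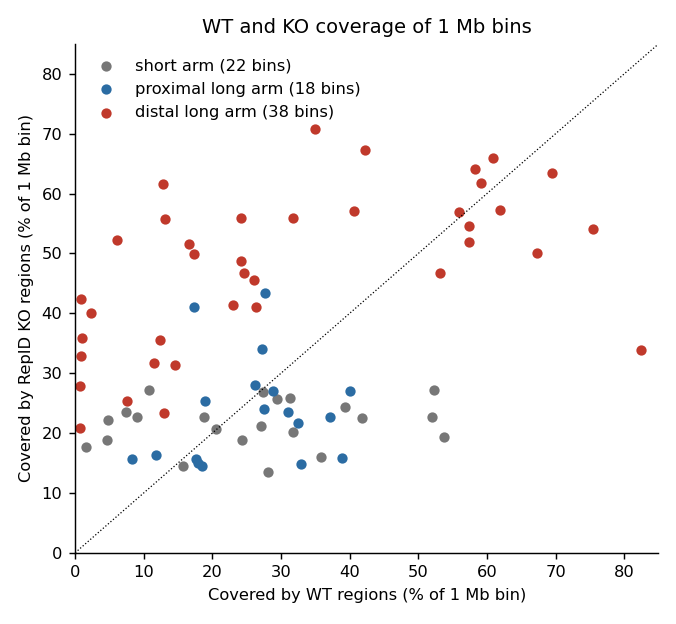
Share of each full 1 Mb bin covered by KO regions (y axis, percent) against the share covered by WT regions (x axis, percent), with bins of the short arm in grey, of the proximal long arm in blue and of the distal long arm in red. Each point is 1 bin and the dotted line marks equal shares. KO regions covered more than WT regions in 30 of 38 distal bins, 7 of 18 proximal bins and 8 of 22 short-arm bins.

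On the distal long arm, KO regions were more numerous than WT regions and had a higher median but a lower mean width, 5224 bp against 5909 bp. The KO list had 3477 regions (91.0 per Mb, median width 4000 bp) that covered 47.6%, and the WT list 2032 regions (53.2 per Mb, median width 3200 bp) that covered 31.5%. The proximal long arm had 1235 KO regions (68.6 per Mb) covering 23.6% and 1029 WT regions (57.2 per Mb) covering 25.6%. Among bins with at least 1% WT coverage, the ratio of KO to WT coverage was highest in stretches with few WT regions. The bin at 50 to 51 Mb had 8 WT regions covering 2.34% and 79 KO regions covering 40.0%, a ratio of 17.1. In the bin at 53 to 54 Mb, 30 WT regions covered 6.10% and 83 KO regions 52.2%, a ratio of 8.56.

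Stretches almost empty of WT initiation were few, and KO regions covered part of each. WT regions covered less than 2% of 6 full bins. The 1 on the short arm, at 13 to 14 Mb, had 9 WT and 54 KO regions, and the latter covered 17.6%. The 5 on the distal long arm, from 51 to 53 Mb and from 67 to 70 Mb, had 5 or 6 WT regions each, and KO regions covered from 20.9% to 42.4% of them. With 1 bin on the short arm, and the others in the part drawn by its KO coverage, these values do not compare the arms. RepID regions were nearly absent from all 6, with 0 or 1 per bin. The opposite order, WT well above KO, was most marked in the following 3 bins. At 1 to 2 Mb WT regions covered 53.7% and KO regions 19.4%, at 42 to 43 Mb 38.9% and 15.8%, and at 79 to 80 Mb 82.4% and 33.8%, with 30, 42 and 123 RepID regions respectively. Other bins differed in this: the bin at 18 to 19 Mb had only 15 RepID regions and a ratio of KO to WT coverage of 0.446, while the bin at 48 to 49 Mb had 52 and a ratio of 1.08.

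Of the KO regions, 554 of 1439 on the short arm (38.5%, exact binomial 95% confidence interval 36.0 to 41.1%), 450 of 1235 on the proximal long arm (36.4%, 33.7 to 39.2%) and 1293 of 3477 on the distal long arm (37.2%, 35.6 to 38.8%) lay more than 2 kb from any WT region. These shares overlapped in their intervals, which cover counting error only, and all were below the 63.3% of the whole KO list. Per Mb, the numbers were 25.2, 25 and 33.9. The highest-scoring KO regions of this kind were on the distal long arm, at chr17:69922001-69948000 (score 1290, 17800 bp from the nearest WT region), chr17:53901401-53922800 (score 1257, 47200 bp) and chr17:53753401-53772800 (score 1241, 3600 bp). On the short arm the highest lay at chr17:16688001-16700200 with a score of 694, 9800 bp from a WT region, followed by chr17:14876401-14887000 (score 512) and chr17:16660001-16669800 (score 507).

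RepID regions were denser on the long arm, with 1403 regions or 24.97 per Mb, than on the short arm, with 324 regions or 14.7 per Mb. The long-arm regions were also wider (median 617 bp against 480 bp) and had higher MACS scores (median 225 against 166). Within the long arm the density was 22.1 per Mb proximally and 26.3 per Mb distally. The distal end of the chromosome stood out. The bin at 79 to 80 Mb had 123 RepID regions, the one at 80 to 81 Mb 85 and the one at 76 to 77 Mb 66, against a median of 20 over the 38 distal bins. No RepID region was listed from 51 to 53 Mb, and the bins at 12 to 14 Mb had 1 each.

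Most RepID regions lay on WT initiation regions. On the whole chromosome 1632 of 1728 overlapped one (94.4%, 93.3 to 95.5%), against 87.7% of all RepID regions listed, with 93.5% on the short arm, 92.9% on the proximal and 95.3% on the distal long arm. Overlap with KO regions, by contrast, followed KO coverage. It was 26.5% on the short arm (21.8 to 31.7%), 26.2% on the proximal long arm (21.9 to 30.8%) and 60.4% on the distal long arm (57.3 to 63.5%), against 27.9% in the whole RepID list. RepID regions that overlapped a WT but no KO region made up 67.9%, 68.3% and 36.9% of the RepID regions of these segments, and 62.2% of the whole list. Because the long arm was divided by KO coverage, the contrast between its 2 parts in these overlaps follows in part from that division. Only 29 RepID regions on the chromosome overlapped a KO but no WT region, and 67 overlapped neither. RepID regions were clustered, since 1042 of 1728 (60.3%) had another within 2 kb, and the median gap to the nearest one was 1034 bp on the short arm, 1056 bp on the proximal and 535 bp on the distal long arm.

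The highest-scoring RepID region of the chromosome, chr17:25289302-25290718 (MACS score 3100), was also the first of the long arm. It lay 18482 bp from the nearest WT region but within a KO region, chr17:25283401-25292800 (score 951). The next highest were chr17:81058759-81062600 (2410), inside the WT region chr17:81019201-81077000 (score 18393) and 1000 bp from a KO region, and chr17:76263768-76266869 (2358), inside chr17:76257601-76271000 (score 2907) and overlapped by the KO region chr17:76259201-76270400 (score 495). On the short arm the 2 highest, chr17:21903893-21905285 (1272) and chr17:21905837-21907234 (1116), shared the WT region chr17:21900601-21911800 and the KO region chr17:21898201-21907800. The third, chr17:18907582-18909062 (1049), lay in the WT region chr17:18900001-18909200 and 5138 bp from the nearest KO region. The highest of each arm therefore lay beside the stretch between the arms.

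A WT origin was called RepID-bound when a RepID region lay at most 2 kb away. By this measure 994 of the 4256 WT origins of chromosome 17 were bound (23.4%, 22.1 to 24.7%), against 18.7% in the whole WT list. The share was 16.8% on the short arm (14.8 to 19.1%), 24.2% on the proximal long arm (21.6 to 26.9%) and 26.8% on the distal long arm (24.9 to 28.8%). Bound origins were wider than the others, the medians being 4800 and 2600 bp, and their median WT score was 513.5 against 134. Of the WT origins 10 kb wide or more, 53.8% were bound, and of those under 2 kb 11.9%. A wider origin meets the rule for bound more easily, so this rise with width follows in part from the definition. The 2 kb limit itself separated like values: the 92 origins with a gap of over 1 to 2 kb were kept in 69.6% (59.1 to 78.7%), and the 113 with a gap of over 2 to 3 kb in 76.1% (67.2 to 83.6%).

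WT origins that shared 1 bp or more with a KO region were called kept. In the whole WT list 60.6% of origins were kept, 56.0% of the bound and 61.7% of the unbound ones. On chromosome 17, 738 of 994 bound origins (74.2%, 71.4 to 76.9%) and 2330 of 3262 unbound origins (71.4%, 69.8 to 73.0%) were kept. The difference, bound minus unbound, was 2.82 percentage points (Newcombe 95% interval -0.378 to 5.87), the highest of the 22 autosomes, and the interval included 0. Among the other 21 autosomes the difference ran from -13.8 to 1.43 percentage points and was below 0 on 20. Chromosome 19, which with chromosome 22 had a RepID density most like that of chromosome 17 (20.9 and 21.4 against 21.3 per Mb), was the other one above 0. The difference on chromosome 17 depended on 70 to 80 Mb: without this stretch it was -0.0253 percentage points, and without any other stretch of up to 10 Mb from 0.741 to 4.20.

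Within the segments of chromosome 17 the difference was small. On the short arm 59.0% of bound (51.8 to 65.9%) and 57.1% of unbound origins (54.0 to 60.3%) were kept. Proximally on the long arm the shares were 57.8% (51.4 to 64.0%) and 61.2% (57.6 to 64.6%), and distally 87.3% (84.2 to 90.0%) and 86.5% (84.6 to 88.2%). Both shares were thus far higher distally than proximally, by more than any difference between bound and unbound origins of a segment. However, the long arm was divided by the change in KO coverage, and kept means overlap with a KO region. Higher kept shares distally therefore follow in part from how the segments were drawn. Bound origins were placed on the distal long arm more often, with 544 of 994 (54.7%) against 1488 of 3262 unbound ones (45.6%). Averaged within the 3 segments and the stretch between the arms, which held 8 WT origins, the difference in kept shares was 0.0962 percentage points. Averaged within 1 Mb bins it was 1.56 percentage points, below the 3.12 of chromosome 19 and above the other 20 autosomes.

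**Figure D3:**
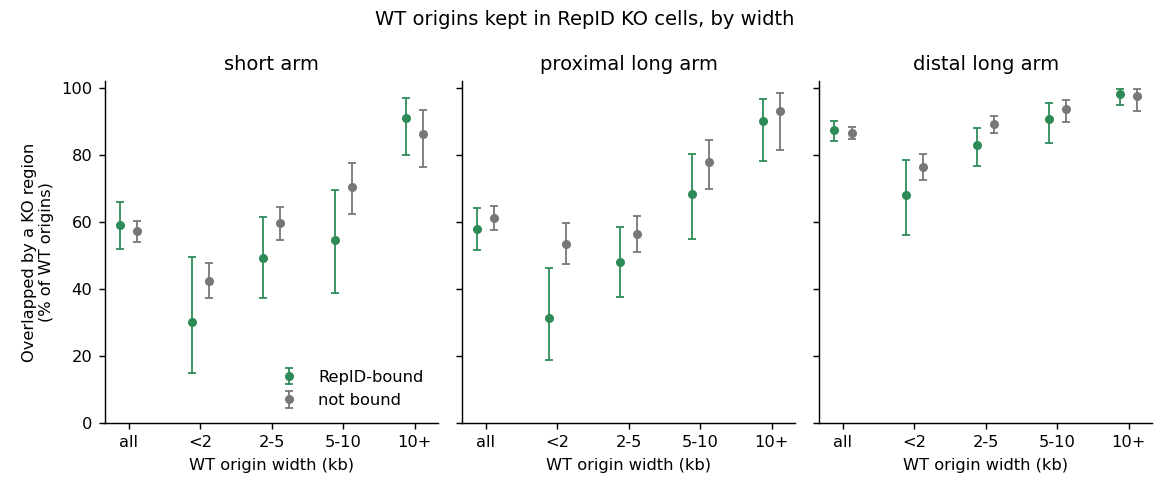
Percentage of WT origins overlapped by a KO region on the short arm, the proximal and the distal long arm, for all origins and by WT width in kb, with RepID-bound origins in green and the others in grey. Bars are exact binomial 95% intervals, which cover counting error only. In every segment the bound origins lay below the others in the classes under 10 kb, and both groups rose with width.

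Width moved with the kept share in both groups. Of bound origins under 2 kb wide, 48.7% were kept (40.4 to 56.96%), against 60.02% of unbound ones (57.1 to 62.9%). From 2 to 5 kb the shares were 67.0% and 72.2%, and from 5 to 10 kb 77.0% and 83.0%. Only at 10 kb or more was the order the opposite, 95.3% (92.1 to 97.5%) against 93.3% (89.3 to 96.1%), with intervals that overlapped. The order below 10 kb was the same on the short arm, the proximal and the distal long arm. Once unbound origins were reweighted to the widths of the bound ones, the difference was -4.63 percentage points, and within 1 Mb bins and width classes together -5.38. By the latter measure the other 21 autosomes ran from -19.8 to -7.14, so that chromosome 17 had the value closest to 0, and every autosome was below 0.

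**Figure D4:**
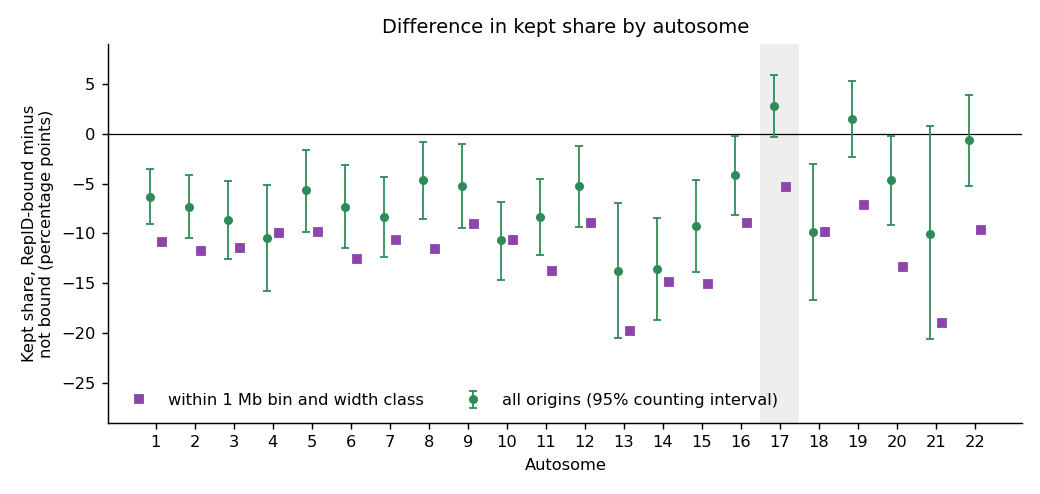
Kept share of RepID-bound minus that of other WT origins, in percentage points, for each autosome (x axis), over all origins (green, with Newcombe 95% counting intervals) and within 1 Mb bins and width classes together (purple squares, no interval). Chromosome 17 (shaded) had the highest value by both measures, 2.82 and -5.38 percentage points, and all 22 purple squares lie below 0.

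Other values of chromosome 17 stood apart from the other autosomes in the same way. KO regions covered 33.5% of it, the highest share, with 29.8% on chromosome 8 next and a median of 17.6% over the other 21. Bound origins lay in bins with a mean KO coverage of 38.6% and unbound ones in bins with 37.2%, a difference of 1.39 percentage points. On the other autosomes this difference ran from -5.43 to 0.171 and was below 0 on 19 of 21. Chromosomes 19 and 22, with WT coverage of 32.3% and 24.3% against 27.5% on chromosome 17, had KO coverage of only 15.6% and 15.3%, and kept 44.0% and 54.1% of their bound origins. Whether KO coverage accounts for the kept shares was not tested.

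Kept shares rose with the KO coverage of the bin, on chromosome 17 as on the other autosomes. Since kept means overlap with a KO region, a rise of this kind follows in part from the definition. Where KO regions covered 50% or more of the bin, 90.1% of bound and 88.5% of unbound origins of chromosome 17 were kept, against 92.1% and 93.0% on the other autosomes. Where they covered under 20%, the shares were 50.6% and 47.9% on chromosome 17, and 43.8% and 47.2% elsewhere. From 20 to 30% they were 63.6% and 60.4% against 57.1% and 63.2%. In the class from 30 to 50%, bound origins were kept less often than unbound ones both on chromosome 17 (79.2% and 83.6%) and elsewhere (70.6% and 74.9%).

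The centre of a WT origin gave another picture. On chromosome 17, KO regions covered the centre of 475 of 994 bound origins (47.8%, 44.6 to 50.9%) and of 1902 of 3262 unbound ones (58.3%, 56.6 to 60.01%), a difference of -10.5 percentage points (-14.0 to -6.98). In the whole WT list the shares were 29.7% and 48.4%. The difference was below 0 on each of the other 21 autosomes as well, from -28.8 to -6.59 with a median of -20.3, and only that of chromosome 19 was closer to 0 than that of chromosome 17. On chromosome 17 it was below 0 in all segments: -10.8 on the short arm, -18.7 on the proximal and -13.1 on the distal long arm. By WT width it was -15.2 under 2 kb, -16.0 from 2 to 5 kb, -9.55 from 5 to 10 kb and -1.85 (-10.4 to 6.72) at 10 kb or more. In the widest class it was 14.4 (-2.03 to 30.3) on the short arm, -25.5 on the proximal and -9.33 on the distal long arm. KO regions covered 50% or more of the length of 49.6% of bound and 59.3% of unbound origins, against 29.4% and 49.2% in the whole list. On average they covered 47.2% of the length of a bound origin and 56.0% of that of an unbound one.

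**Figure D5:**
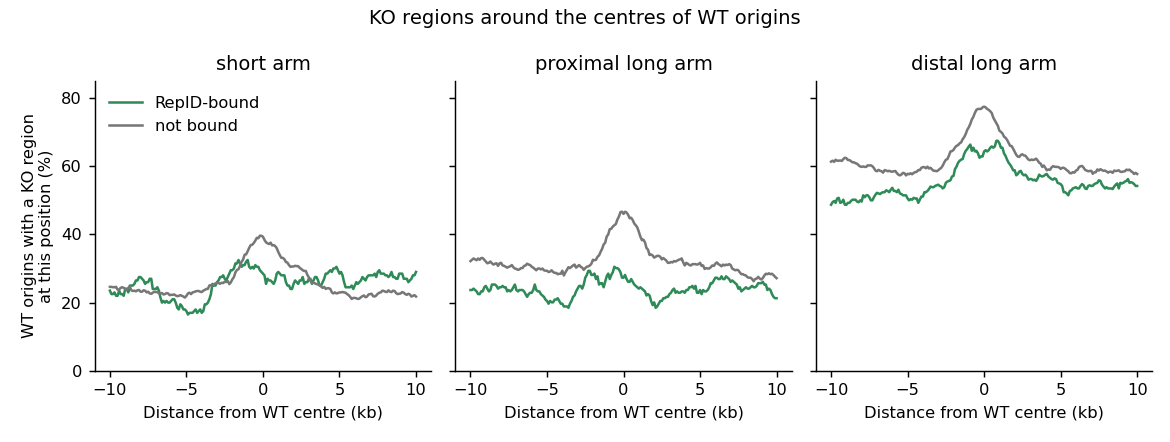
Percentage of WT origins with a KO region at each position from 10 kb before to 10 kb after the WT centre (x axis, kb), for RepID-bound (green) and other (grey) origins of the short arm, the proximal and the distal long arm. Unbound origins show a peak at the centre in all 3 segments, and bound origins a lower one whose highest point lies to the side of the centre.

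Around the centres, unbound origins had a KO peak in every segment, whereas that of bound origins was weaker. On the short arm KO regions covered 39.3% of unbound centres and 23.4% of the positions 9 to 10 kb away, a ratio of 1.68, and 28.5% and 25.1% for bound origins, a ratio of 1.13. On the proximal long arm the ratios were 1.52 and 1.16. On the distal long arm they were closer, 1.29 (77.5% over 60.1%) and 1.23 (64.3% over 52.3%). Bound origins were wider than unbound ones (medians 4800 and 2600 bp), and these ratios were not adjusted for width. At 1 kb from the centre, KO coverage of bound origins was 66.3% on the distal long arm, 30.8% on the short arm and 26.3% on the proximal long arm, above, above and below its value at the centre.

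Origins with several RepID regions were kept most often, and were also the widest. Of bound origins with 1 RepID region within 2 kb, 404 of 576 were kept (70.1%, 66.2 to 73.9%), of those with 2 or 3, 254 of 333 (76.3%, 71.3 to 80.7%), and of those with 4 or more, 80 of 85 (94.1%, 86.8 to 98.1%). Their median widths were 3600, 6200 and 22000 bp. The mean part of the region that KO regions covered did not follow the kept share, at 48.3%, 45.6% and 46.8%. The segments differed: from 1 RepID region to 4 or more, it went from 65.7% to 52.8% on the distal long arm, from 31.8% to 25.1% on the proximal long arm and from 26.0% to 40.1% on the short arm, where only 12 origins had 4 or more.

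The strongest bound WT origins of the chromosome lay together between 79 and 80 Mb. The region chr17:79036801-79111000, with a score of 34248 and 8 RepID regions within 2 kb, was overlapped by 5 KO regions that together covered 49.6% of it. The region chr17:79400001-79453000 (score 24621, 11 RepID regions) was covered over 34.7% and chr17:79941001-79996200 (score 23774, 6 RepID regions) over 35.9%. Other strong bound origins of the same Mb had no overlapping KO region. These were chr17:79130601-79147800 (score 5448, 3 RepID regions), 1600 bp from the nearest KO region, and chr17:79910601-79928600 (score 4544, 4 RepID regions), 4000 bp away. The next on the long arm without a KO region was chr17:37347601-37355200 (score 2312, 3 RepID regions), on the proximal part.

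On the short arm the strongest bound origins kept in KO cells were chr17:21900601-21911800 (score 13145, covered over 64.3%), chr17:21267601-21331200 (12689, 43.4%) and chr17:17680401-17728600 (11250). Of the last, a single KO region of 4000 bp covered 8.30%. The strongest bound origins without a KO region were chr17:1625801-1662600 (score 6358, 8000 bp from the nearest KO region), chr17:2589801-2616400 (5123, 1200 bp) and chr17:7249401-7260400 (1970, 200 bp). On the chromosome as a whole, the median width was 2600 bp for the 256 bound origins without a KO region and 6200 bp for the 738 that were kept, and their median scores were 230.5 and 731. On the distal long arm only 69 of 544 bound origins had no KO region, against 82 of 200 on the short arm and 105 of 249 on the proximal long arm. The contrast within the long arm follows in part from its division by KO coverage.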

How the data were processed

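Nascent strands from 1 WT and 1 KO library of HCT116 cells and FLAG ChIP from 1 library of U2OS cells were used. A genomic control of HCT116 cells, used by the authors in calling both nascent-strand lists, was not analysed here. The deposited lists give, per enriched region, a start, an end and a score. The authors called RepID regions with MACS against genomic input. SICER is named with MACS in the submitters' processing notes, which give the build as hg19, but the programme used for HCT116 is not given in the sources used here, and neither is the meaning of the deposited nascent-strand score. Scores were compared only within a list. All WT and KO regions lay on a grid of 200 bp.

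Positions are counted from 1. Overlaps, gaps and covered lengths were computed with SciPy 1.17.1, pandas 2.3.3 and numpy 2.4.6 under Python 3.11.15, figures were drawn with matplotlib 3.10.9, and overlaps were checked on simulated data against bedtools 2.31.1. Regions were assigned to arms and 1 Mb bins by their start. Shares have exact (Clopper-Pearson) and differences Newcombe 95% intervals, for counting error only, and neighbouring regions are not independent. Differences within bins or segments used Mantel-Haenszel weights. Reweighting used 5 width classes of the bound origins. Without replicates no test was made. Named were, per arm, the 3 highest-scoring RepID regions, bound WT origins with and without a KO region, and KO regions over 2 kb from a WT region, and the 3 bins with most and fewest RepID regions and with the highest and lowest ratio of KO to WT coverage where WT regions covered at least 1%. Members, lists and named items were chosen with earlier results of these data known. Genes and sequences were not used here, since those at hand are on another build. Other distances for bound, other overlaps for kept, scores at or above the median of each whole list (the stricter scores), a shorter KO list, regions merged when under 1 kb apart and stretches left out were tried as alternatives.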

Additional observations from a re-analysis of the deposited data

How the results depend on the processing

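Of 83 alternatives, 10 of them chosen after the data were examined, 48 stayed within the 95% counting interval or, for values without one, within 1.5 times, 17 moved and 18 turned the sign of a difference. The difference in covered centres stayed below 0 throughout. It moved only when averaged within the 3 segments and the stretch between the arms, to -14.0 percentage points. The difference in kept shares on chromosome 17 was -9.69 percentage points when 50% had to be covered, -4.63 with unbound origins reweighted to the widths of the bound ones, -5.38 within 1 Mb bins and width classes, -3.67 with the distal KO regions limited by score to the covered share before 43 Mb, and -0.0253 without 70 to 80 Mb, against 4.20 without 30 to 40 Mb. The limit by score left 809 distal KO regions, which overlapped 41.9% of bound and 46.3% of unbound distal origins. These shares are below the proximal ones of 57.8% and 61.2%, so the limit did not make the 2 parts alike. The difference on chromosome 17 was 5.16 (interval 1.46 to 8.61) with the stricter RepID score, 3.01 (0.0902 to 5.85) with bound at 5 kb and 3.405 (0.118 to 6.53) with regions merged. These intervals leave out 0 but cover counting error only, and neighbouring regions are not independent. The chromosome was singled out with this difference known, so they are no test of it. For the short and long arms the difference in kept shares was -17.5 and -11.3 with 50% covered, -0.402 and -1.07 at a gap of 2 kb, -7.44 and -6.18 after reweighting, and -9.33 and -4.37 within bins and width classes. On the short arm it was 5.62 with bound at 5 kb, 6.42 with the stricter KO score, 5.06 with a KO list as long as the WT list and 3.30 with regions merged, against 1.86. On the long arm it was also -0.902 with bound at 5 kb, -1.99 with the stricter KO score, -1.41 with a KO list as long as the WT list, -4.46 with distal KO regions limited and -0.509 within its 2 parts. An overlap of 1 bp is met more easily by a wider region, but the cause of these changes was not tested.

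The bound share was 20.5% when an overlap was asked for, 30.7% at 5 kb, and 32.0% and 15.3% with the stricter WT and RepID scores. Kept shares of bound and unbound origins reached 49.6% and 59.3% by the rule of 50% covered, 81.7% and 80.8% by a KO region up to 2 kb away, 77.8% and 76.7% with the stricter WT score, 60.8% and 57.9% with the stricter KO score, and 63.4% and 60.5% with a KO list as long as the WT list. RepID densities of the short and long arm were 5.95 and 14.0 per Mb with the stricter RepID score. No paired analysis was possible because the result comes from no test and each condition has 1 library. Since depth is unknown, a region missing from a list may have been missed.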
